A study of Rattus norvegicus with 120 samples.

Results

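The kidneys of rats given only the vehicle, olive oil, form a series of 4 ages within a drug toxicity study, and their 17 arrays were compared with one another here, with no drug-treated rat in the main comparisons. The members were all 17 samples labelled olive oil among 120 samples in all, with 4 rats at 1 dose, 4 at 7 doses, 4 at 14 doses and 5 at 28 doses. The rats were male Sprague-Dawley rats, about 5 to 7 weeks old when dosed, injected into the abdomen with olive oil once a day. Kidneys were taken 24 hours after the last dose, and the portions of both kidneys that were not used for histology gave the RNA. Each sample is 1 rat on 1 Affymetrix Rat 230 2.0 array, a microarray that reads each gene through 1 or more sets of short probes. The remaining rats of the study were treated by the same route with CsA (cyclosporine), FK506 (tacrolimus) or Rapa (rapamycin); of these, the 17 rats given CsA at 2.5 mg/kg (4, 4, 4 and 5 at the same days) were used below as separate animals on the same calendar. Different rats were taken at each day, so no rat was followed over time, and replicate numbers only name rats in the order of their entries. Age, the number of injections and the day on which a group was killed and processed cannot be told apart, because all change together.

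A rat of this age is passing through puberty and is still growing fast. The nephrons are all formed by then, and the kidney gains mass as its tubule cells divide and enlarge, while the fibroblasts between the tubules lay down collagen. As growth slows, cells leave the division cycle and the making of new matrix declines. Red cells pass through the organ in its blood, and young red cells still carry globin RNA.

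Levels are given as log2(intensity + 16) after quantile normalization, so that a difference of 1 is a doubling of intensity plus the offset; levels are compared only within a gene. Markers of the tissue were high in all 17 arrays. Slc34a1, the phosphate transporter of the proximal tubule, lay between 13.69 and 13.88, and Umod, the uromodulin of the thick ascending limb, between 13.69 and 13.97. Nphs1, the nephrin of the podocyte, lay between 7.64 and 8.68. Median intensities ran from 64.45 to 78.76, and each array correlated at 0.969 to 0.983 with the other arrays of its day. One measure of RNA quality set day 7 apart. The log2 ratio of the 3′ to the 5′ probe set of Gapdh, which rises when RNA is shortened or copied incompletely, averaged 0.326 ± 0.0365 (SD, n = 4) on day 1, 0.727 ± 0.17 (SD, n = 4) on day 7, 0.403 ± 0.0247 (SD, n = 4) on day 14 and 0.394 ± 0.0462 (SD, n = 5) on day 28. The day 7 rats were 0.351 above the other 13, and every day 7 rat exceeded every other rat. Day 7 was set apart because its Gapdh ratio was known to be high, so a p-value for this ratio would carry no evidence. The beta-actin ratio of the same arrays was higher on day 7 by 0.238 (exact permutation test, two-sided, p = 0.0063), a p-value not independent of the choice of day 7. Its day 7 range, 1.924 to 2.321, overlapped that of day 28, 1.839 to 2.087. Both ratios also averaged somewhat higher on day 28 than on day 1 (beta-actin 1.95 against 1.8). The comparison of day 28 with day 1 is therefore given first, and values with this ratio as a covariate stand beside the day 7 results that the text turns on.

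Between day 1 and day 28 a small set of kidney genes moved, and collagen, other matrix genes and red cell genes led the falls. In the limma fit over 10663 genes, 80 genes passed an adjusted p of 0.05 (Benjamini-Hochberg), of which 30 rose and 50 fell. This is 0.75% of the genes tested (0.281% higher and 0.469% lower), and 1492 genes had an unadjusted p under 0.05. The day 1 and day 28 rats did not overlap for 79 of the 80 genes (0.741% of all genes were called with no overlap). Only 8 of the 80 changed by more than 2-fold. Without replicates 1, 3 or 4 of day 1 the count was 30, 32 and 35, without replicates 2 to 5 of day 28 it was 40 to 50, and without replicate 2 of day 7 it was 167. With the Gapdh ratio as a covariate it was 85, of which 59 were among the 80. The median gene did not move (-0.01), and 51.4% of all genes had a difference below 0.

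**Figure D1:**
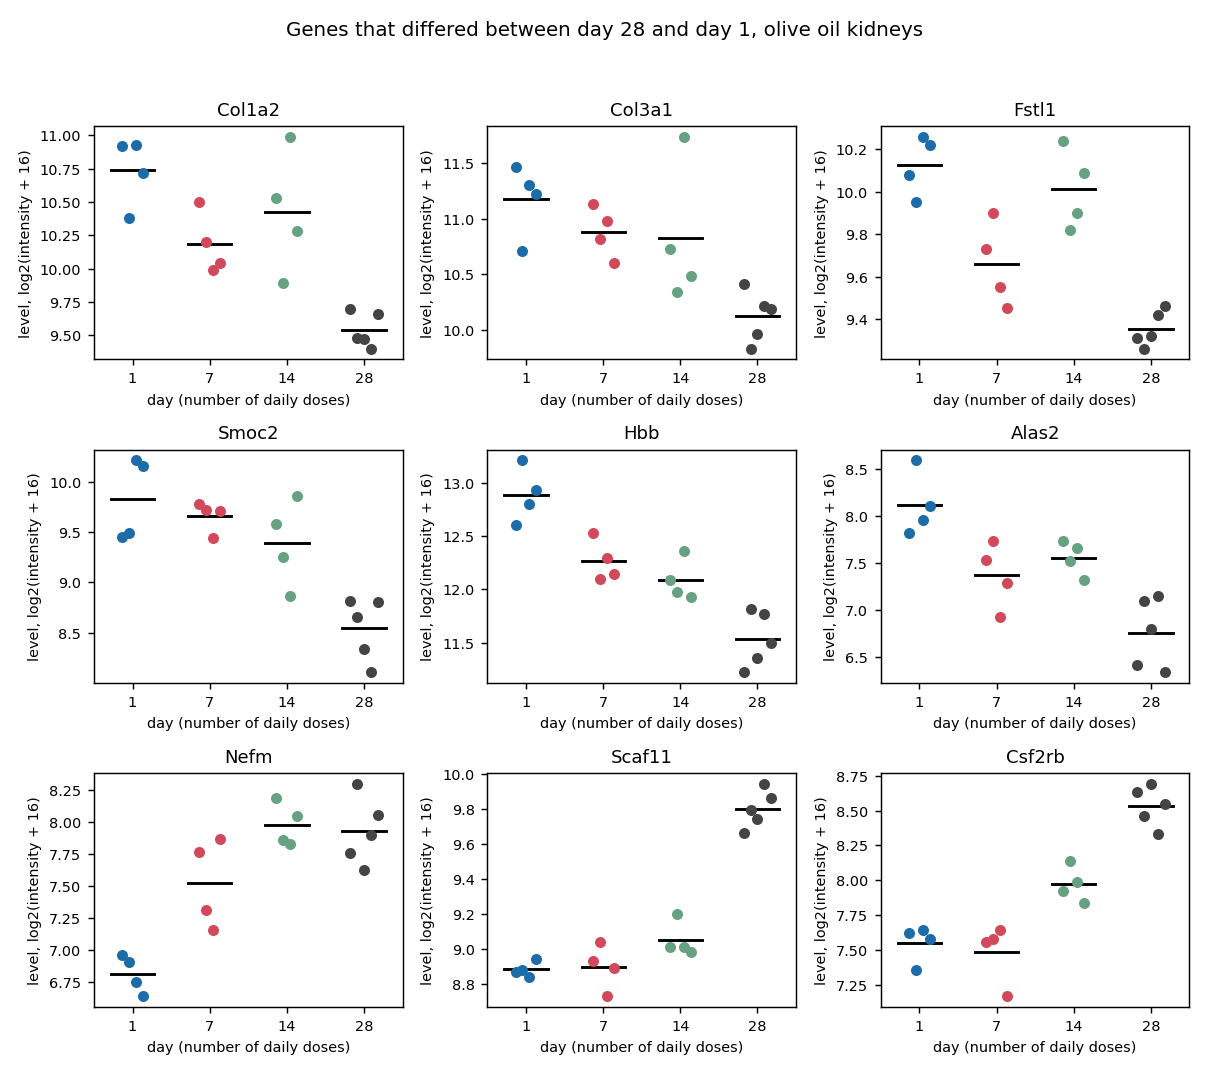
Level of 9 genes, as log2(intensity + 16), in each olive oil rat at days 1, 7, 14 and 28; each point is 1 rat (4, 4, 4 and 5 rats) and each black line is the mean of a day. Col1a2, Col3a1, Fstl1, Smoc2, Hbb and Alas2 are lower on day 28 than on day 1, and Nefm, Scaf11 and Csf2rb are higher.

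Several genes for fibrillar collagen and the matrix around it fell. Col1a2, which encodes a chain of type I collagen, measured 10.92, 10.38, 10.93 and 10.72 in the day 1 rats, 10.50, 10.20, 9.99 and 10.04 on day 7, 10.53, 9.89, 10.99 and 10.28 on day 14, and 9.70, 9.48, 9.47, 9.40 and 9.66 on day 28. All 5 day 28 rats lay below all 12 younger rats. The fall from day 1 was 1.20 ± 0.18 on the log2 scale (SE; limma adjusted p = 0.00323), or 2.29-fold, and the other Col1a2 probe set changed by -1.26. Fstl1, a secreted glycoprotein of mesenchymal cells, measured 10.08, 9.95, 10.26 and 10.22 on day 1, 9.73, 9.90, 9.55 and 9.45 on day 7, 10.24, 9.82, 9.90 and 10.09 on day 14, and 9.31, 9.26, 9.32, 9.42 and 9.46 on day 28. It fell by 0.78 ± 0.11 (limma adjusted p = 0.00228), its other probe sets changed by -0.71 and -0.63, and the fall from day 14 to day 28 was also called (-0.66, limma adjusted p = 0.0294). Smoc2, a calcium-binding matricellular protein, measured 9.45, 9.49, 10.21 and 10.15 on day 1, 9.78, 9.72, 9.44 and 9.71 on day 7, 9.58, 9.25, 8.87 and 9.86 on day 14, and 8.82, 8.66, 8.34, 8.11 and 8.81 on day 28. Every day 28 value was again the lowest of all, although the lowest day 14 rat came close to them. Smoc2 fell by 1.28 ± 0.21 (limma adjusted p = 0.00803). Col3a1, type III collagen, fell by 1.06 ± 0.23 with an adjusted p of 0.0481 in limma, and this call was lost in 18 of 26 alternative settings, where the difference stayed between -1.21 and -0.96.

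Of 39 measured members of the list of interstitial collagens and matrix, 7 fell and 0 rose (0.469% of all genes fell), and the rats of day 28 lay wholly below those of day 1 for 15 of them (4.23% of all genes). The list's median difference was -0.44 against -0.01 over all genes, and 34 of 39 differences were below 0. Col6a6, a collagen gene that is not on the list, went the other way and rose (0.78 ± 0.15, limma adjusted p = 0.0235). Besides Col1a2, Col3a1 and Fstl1, the members that fell were Fn1, fibronectin (-0.69 ± 0.12, limma adjusted p = 0.0106), Sparc, a collagen-binding protein of tissues under remodelling (-0.61 ± 0.12, adjusted p = 0.0272), Col5a2 (-0.64 ± 0.14, adjusted p = 0.0424) and Col6a3 (-0.60 ± 0.13, adjusted p = 0.0476). Col1a1, the partner chain of Col1a2, had a difference of -0.74 that did not pass (adjusted p = 0.345). The count rests partly on single rats: it was 2 without replicate 3 of day 1, 3 without replicate 1 or 4 of day 1 or replicate 4 or 5 of day 28, 4 without replicate 2 or 3 of day 28, and 5 to 8 without any other rat. Of 17 basement membrane genes, which build the sheet under tubule and vessel cells, 3 fell and 0 rose, with a median of -0.14. These were Col4a1 (-0.40 ± 0.08, adjusted p = 0.0296), Col4a5 (-0.42 ± 0.08, adjusted p = 0.0255) and Lama2 (-0.67 ± 0.13, adjusted p = 0.0285). No basement membrane gene passed without replicate 1, 3 or 4 of day 1 or replicate 2 of day 28, and 1 passed without replicate 1, 3 or 4 of day 28.

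Markers of other cells of the interstitium were read beside the matrix list. Of 26 endothelial and 23 smooth muscle and pericyte markers, 0 were called (0.75% of all genes), with medians of -0.12 and -0.07 and 19 and 16 differences below 0. The summed level of the matrix list was 14.34 to 14.63 in the day 1 rats and 13.84 to 14.07 in the day 28 rats, without overlap. For the endothelial list the ranges were 13.49 to 13.68 and 13.43 to 13.57, and for the smooth muscle list 13.00 to 13.17 and 12.86 to 13.08. In RNA from whole tissue, fewer cells of a type and less RNA per cell cannot be told apart.

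**Figure D2:**
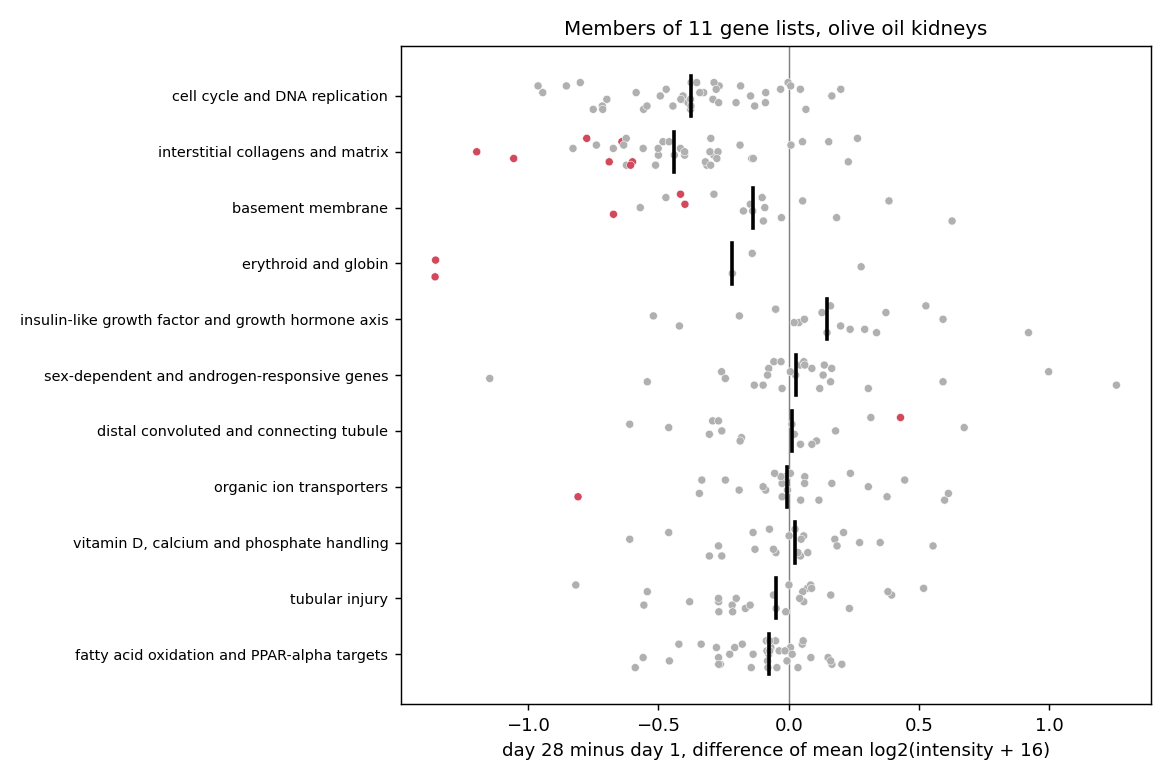
Difference between day 28 and day 1 (log2) for each tested member of 11 gene lists in olive oil kidneys; each point is 1 gene, red points passed the test at an adjusted p of 0.05, and the black bar is the median of a list. The matrix list has 7 red points, all below 0, and the cell cycle list has none although its median is -0.37.

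Of 43 cell division genes, 10 fell between day 7 and day 28 (1.25% of all genes fell), 1 did so with the Gapdh ratio as a covariate, and 0 passed between day 1 and day 28. Eukaryotic cells copy their DNA and divide under cyclins and their kinases, and the RNA of many of these genes appears only in dividing cells, through repressor and activator complexes on short promoter motifs. The promoters of 3 of them are shown here because all 3 fell between day 7 and day 28. They are the bases before the start site of Top2a, the topoisomerase that untangles copied DNA (chr10:84473094-84473343, minus strand), of Mki67, the proliferation antigen Ki-67 (chr1:199952594-199952843, minus strand), and of Cdk1, the kinase that starts mitosis (chr20:19265043-19265292, plus strand), from RefSeq on GRCr8, 5′ to 3′ along the gene. Capitals mark matches on either strand of TTTGAA, the cell cycle homology region (CHR), and of CCAAT.
Top2a: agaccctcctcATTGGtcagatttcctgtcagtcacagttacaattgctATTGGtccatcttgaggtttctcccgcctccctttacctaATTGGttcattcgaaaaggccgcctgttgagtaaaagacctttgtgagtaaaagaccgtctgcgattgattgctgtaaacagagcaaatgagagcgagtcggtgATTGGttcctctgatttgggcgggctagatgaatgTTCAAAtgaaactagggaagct
Mki67: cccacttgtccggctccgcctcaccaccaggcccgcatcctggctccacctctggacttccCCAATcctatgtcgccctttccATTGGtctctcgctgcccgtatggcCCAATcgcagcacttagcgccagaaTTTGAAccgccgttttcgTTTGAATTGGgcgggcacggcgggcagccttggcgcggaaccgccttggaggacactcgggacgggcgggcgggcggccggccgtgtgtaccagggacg
Cdk1: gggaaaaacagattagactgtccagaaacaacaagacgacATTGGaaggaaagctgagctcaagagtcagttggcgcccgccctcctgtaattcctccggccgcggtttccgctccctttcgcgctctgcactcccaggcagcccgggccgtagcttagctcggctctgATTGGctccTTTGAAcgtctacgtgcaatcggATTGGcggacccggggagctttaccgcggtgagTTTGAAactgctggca
Top2a holds 1 CHR and 4 CCAAT matches, Mki67 holds 2 and 4 (1 CCAAT shares a base with a CHR), and Cdk1 holds 2 and 3. A RefSeq promoter entry was found for 35 of the 43 tested members of the cell cycle list. The CHR letters occur in 14 of these (40.0%) against 9.82% of the 8904 tested genes with an entry, and CCAAT in 27 (77.1%) against 35.4%. A match of this kind is a description of the letters and not a binding site.

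Mki67 measured 6.34, 6.58, 7.11 and 7.03 on day 1, 7.06, 7.37, 6.65 and 6.54 on day 7, 6.60, 6.07, 6.70 and 5.84 on day 14, and 5.50, 5.96, 5.47, 6.32 and 5.76 on day 28. The day 28 rats were all below the day 1 rats. The difference of -0.96 ± 0.23 did not pass over all genes (limma adjusted p = 0.0647), while that from day 7 did (-1.11, limma adjusted p = 0.026; -1.15 with the ratio in the fit, adjusted p = 0.169). Cdk1 measured 6.69, 6.87, 7.31 and 7.22 on day 1, 7.49, 7.16, 7.15 and 6.78 on day 7, 6.91, 5.99, 6.82 and 6.47 on day 14, and 6.19, 6.02, 5.80, 6.27 and 6.55 on day 28. Its differences were -0.85 ± 0.20 from day 1 (limma adjusted p = 0.0591) and -0.98 from day 7 (limma adjusted p = 0.0237; -0.76 with the ratio in the fit, adjusted p = 0.287). Top2a followed another course, staying high through day 14. It measured 6.76, 6.65, 7.17 and 7.06 on day 1, 7.79, 6.78, 7.30 and 7.41 on day 7, 7.50, 7.39, 7.06 and 6.94 on day 14, and 5.88, 6.09, 6.09, 6.62 and 6.37 on day 28. The fall from day 7 passed (-1.11, limma adjusted p = 0.00946), as did that from day 14 (-1.01, limma adjusted p = 0.0428), a call lost in 17 of 26 alternative settings, but that from day 1 did not (-0.70, adjusted p = 0.0982).

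Cdc25b is the division gene with the firmest fall from day 1; it encodes a phosphatase that switches on the mitotic kinase, and it was named by its size of change and is not on the cell cycle list. It measured 6.85, 7.19, 7.12 and 6.62 on day 1, 6.70, 6.71, 6.59 and 6.58 on day 7, 6.53, 6.05, 6.03 and 5.64 on day 14, and 5.96, 5.51, 5.94, 5.53 and 5.91 on day 28. It fell by 1.17 ± 0.16 (limma adjusted p = 0.00228) and passed in all 26 alternative settings.

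Over the 43 members of the cell cycle list, 0 passed between day 1 and day 28, with a median of -0.37 and 38 differences below 0. With 1 rat left out this count was 0 or 1. The rats of day 28 lay wholly below those of day 1 for 12 of the 43 (4.23% of all genes). Between day 7 and day 28, 10 fell and 0 rose (1.25% of all genes fell), with a median of -0.38. Besides Mki67, Cdk1 and Top2a these were the mitotic cyclins Ccnb1 (-0.83 ± 0.11, limma adjusted p = 0.00156) and Ccnb2 (-0.87 ± 0.21, adjusted p = 0.0444), Ccne2, Cenpf, Spc25, Stmn1 and Racgap1, a regulator of cell separation (-0.76 ± 0.14, adjusted p = 0.0139). Against the other days together, 3 of the 43 were higher on day 7 (1.24% of all genes), which were Ccnb1, Ccne2 and Racgap1. That count was 1 without replicate 1, 3 or 4 of day 7, and 0 with the Gapdh ratio in the fit (median 0.13 against 0.22). Cdkn3, a phosphatase of cell cycle kinases outside the list, fell by 1.23 between day 7 and day 28 (limma adjusted p = 0.0237; -1.01 with the ratio in the fit, adjusted p = 0.262). The day 7 comparisons carry the higher Gapdh ratio of that day. With the ratio as a covariate, the count of 10 became 1, with a median of -0.31, and the 1 was Ccnb1 (-0.84, limma adjusted p = 0.0457); Top2a stood at -0.33 (adjusted p = 0.566). The count was 4 without replicate 2 of day 7 or replicate 1 or 2 of day 28, 5 without replicate 4 of day 7, replicate 4 of day 14 or replicate 3 of day 28, and 6 without replicate 4 of day 1, replicate 1 or 3 of day 7 or replicate 5 of day 28; otherwise it was 7 to 9.

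**Figure D3:**
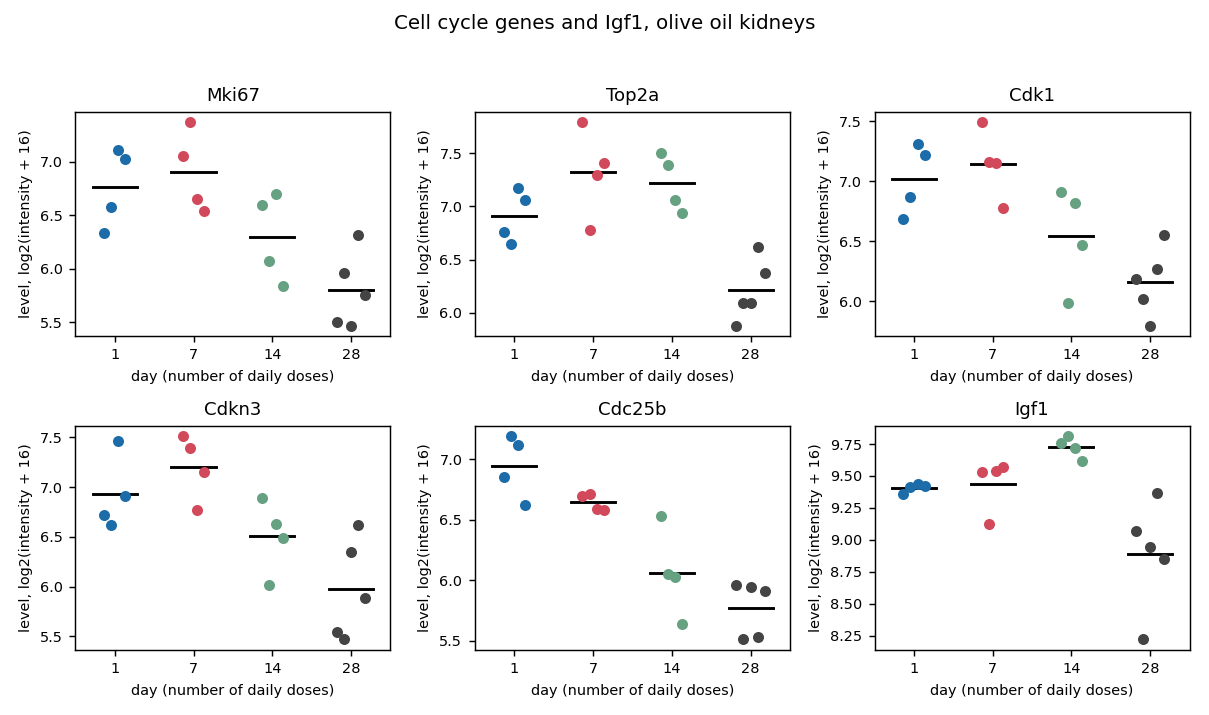
Level of Mki67, Top2a, Cdk1, Cdkn3, Cdc25b and Igf1, as log2(intensity + 16), in each olive oil rat at days 1, 7, 14 and 28; points are rats and black lines are means. The mean of Cdc25b is lower at each later day, and Top2a and Igf1 are lower on day 28 than on day 14.

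Both genes most specific to red cells fell from day 1 to day 28. Hbb, the beta chain of haemoglobin, measured 12.60, 13.21, 12.80 and 12.93 on day 1, 12.53, 12.10, 12.29 and 12.14 on day 7, 12.09, 11.97, 12.36 and 11.93 on day 14, and 11.22, 11.81, 11.35, 11.77 and 11.50 on day 28. The day 1 rats were above all others and the day 28 rats below all others, with the middle days between. Hbb fell by 1.36 ± 0.15, or 2.56-fold (limma adjusted p = 0.000257). Alas2, the haem-making enzyme of red cell precursors, measured 7.82, 8.59, 7.96 and 8.11 on day 1, 7.53, 7.73, 6.93 and 7.29 on day 7, 7.73, 7.52, 7.66 and 7.32 on day 14, and 6.42, 7.10, 6.80, 7.15 and 6.34 on day 28. It fell by 1.36 ± 0.20 (limma adjusted p = 0.0029). Both passed in all 26 alternative settings. They are 2 of 5 erythroid genes measured (0.469% of all genes fell); the others were Slc4a1, an anion exchanger that kidney intercalated cells also make (0.28), Tfrc, the transferrin receptor (-0.22), and Bpgm (-0.14), none of them called. The summed level of the list was 13.14 to 13.59 on day 1, 12.68 to 13.06 on day 7, 12.65 to 12.99 on day 14 and 12.30 to 12.59 on day 28. White cell lists did not separate the same days. The summed level of the macrophage list was 13.30 to 13.37 on day 1 and 13.13 to 13.47 on day 28, that of the lymphocyte list was 10.27 to 10.62 and 10.33 to 10.65, and 0 of their 21 and 8 members were called. The part of blood left in the organ in the fall of Hbb and Alas2 was not tested.

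The 30 genes that rose had less in common by name. Nefm, a neurofilament subunit, measured 6.96, 6.91, 6.75 and 6.64 on day 1, 7.77, 7.31, 7.16 and 7.87 on day 7, 8.19, 7.86, 7.83 and 8.05 on day 14, and 7.76, 8.30, 7.63, 7.90 and 8.06 on day 28. It had reached its late level by day 14, where it differed from day 1 by 1.17 (limma adjusted p = 0.0129), and by 1.12 ± 0.16 on day 28 (limma adjusted p = 0.00228). The day 14 call was lost without replicate 3 of day 1 (1.14, limma adjusted p = 0.0588) or replicate 4 of day 1 (1.11, limma adjusted p = 0.06). Csf2rb, the shared signalling chain of the receptors for interleukin-3, interleukin-5 and GM-CSF, measured 7.62, 7.36, 7.64 and 7.58 on day 1, 7.56, 7.58, 7.64 and 7.17 on day 7, 7.92, 8.14, 7.99 and 7.84 on day 14, and 8.63, 8.46, 8.69, 8.33 and 8.55 on day 28. It rose in steps after day 7, by 0.98 ± 0.11 in all (limma adjusted p = 0.000257), with no overlap between days 7, 14 and 28. Scaf11, which encodes a protein linked to pre-mRNA splicing, measured 8.87, 8.88, 8.84 and 8.94 on day 1, 8.93, 9.04, 8.73 and 8.89 on day 7, 9.01, 9.20, 9.01 and 8.98 on day 14, and 9.66, 9.79, 9.74, 9.94 and 9.86 on day 28. Its rise of 0.92 ± 0.08 had the smallest adjusted p of the comparison (limma, 2.59e-05) and came mostly between day 14 and day 28, but its 4 other probe sets gave 0.33, 0.09, 0.43 and -0.24, the last with a mean level of only 4.45.

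The rises included 2 chromatin genes, Chd7, a chromatin remodeller (0.78 ± 0.11, limma adjusted p = 0.00287), and Baz2b, a bromodomain protein (0.77 ± 0.11, adjusted p = 0.0029). Both passed in all 26 alternative settings. They were read after their values were seen and no list of such genes was tested. The other probe set of Baz2b gave -0.09, and those of Chd7 gave 0.64 and 0. Other chromatin genes were called lower, among them Hdac1, a histone deacetylase (-0.68, other probe set -0.43), and Ssrp1, a histone chaperone (-0.38). Smim24 (0.74, adjusted p = 0.00228) and Limd1 (0.72, adjusted p = 0.00666) also passed in all 26. Rises that did not pass in each setting were Wiz (0.81, lost in 3 of 26), R3hdm2 (0.79, lost in 7), Col6a6 (0.78, lost in 8), Atxn2l (0.73, lost in 13) and Mga (0.70, lost in 17). Among the falls, Ccdc127 (-0.92, adjusted p = 0.00228) passed in all 26, and Pcdh18, a protocadherin (-1.15, adjusted p = 0.0106), in all but the setting without replicate 1 of day 1 (-1.08, limma adjusted p = 0.0507). Cxcr4, the chemokine receptor (-0.88, lost in 6 of 26), Slco2b1, an organic anion transporter (-0.81, lost in 13), and Zfp521 (-0.78, lost in 17) were less firm.

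Where a called gene had a further probe set on the array, the falls and the rises were read again. For 15 genes that fell, 15 of 18 other probe sets also had a difference below 0, with a median of -0.52 against -0.65 for the probe set used. For 16 genes that rose, 14 of 22 other probe sets were above 0, with a median of 0.08 against 0.54. The gap between falls and rises was not tested. The size of a rise read from a single probe set therefore carries this limit.

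For most of the 80 genes the day 14 mean lay between those of day 1 and day 28. Of the 50 genes that fell, 49 had a day 14 mean between those of day 1 and day 28 (1756 of all 10663 genes are ordered over these days), and the median steps were -0.28 up to day 14 and -0.32 after it. Of the 30 that rose, 24 were ordered, with median steps of 0.26 and 0.19. With day 7 included, 22 of the 50 and 8 of the 30 were ordered over all 4 days (378 of all genes). Since the genes were chosen for their difference between day 1 and day 28, the order of the middle day is a description. Compared on its own, day 14 differed from day 1 in 3 genes, all higher (0.0281% of genes tested, limma; 1312 at an unadjusted p under 0.05): Nefm, Chd7 (0.90, adjusted p = 0.0126) and Ggn (1.21, adjusted p = 0.0231). Without replicate 1 of day 14 the count was 28, without replicate 4 of day 14 it was 7, without replicate 2 of day 7 it was 5, and without replicate 3 of day 1 it was 1. Ggn then fell back by 0.95 by day 28.

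Day 28 differed from day 14 in 24 genes, 13 higher and 11 lower (0.225% of genes tested, 0.122% and 0.103% by direction, limma; 1192 at an unadjusted p under 0.05). The count fell to between 3 and 15 without any 1 of 12 of the rats, and to 3 without replicate 1 of day 1 or replicate 1 of day 28. Among the rises were Ccl4, a chemokine (1.04), Sowaha (0.97), Raph1 (0.89) and Eef2k, the kinase that slows protein elongation (0.81). Each of these had its lowest mean on day 14. Their day 1 and day 28 means were 6.60 and 6.66 for Ccl4, 6.00 and 6.22 for Sowaha, 6.65 and 6.98 for Raph1, and 6.51 and 6.93 for Eef2k. Among the falls was Igf1, insulin-like growth factor 1, a growth signal downstream of growth hormone. Igf1 measured 9.36, 9.41, 9.44 and 9.42 on day 1, 9.53, 9.12, 9.54 and 9.57 on day 7, 9.76, 9.81, 9.72 and 9.62 on day 14, and 9.07, 8.22, 8.94, 9.37 and 8.85 on day 28. The day 14 rats were above all others, and the day 28 rats spread over a wider range. The difference of -0.84 ± 0.16 had a limma adjusted p of 0.0469, lost in 20 of 26 alternative settings, and that from day 1 did not pass (-0.52, adjusted p = 0.15).

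Genes that mark the nephron's own cells were called at about the share of all genes (0.75%). The tested markers were of the proximal tubule (35), thick ascending limb (14), collecting duct (19), intercalated cells (12) and podocytes (18). Of these, 0 were called between day 1 and day 28. The summed level of the proximal tubule list was 17.39 to 17.44 on day 1 and 17.48 to 17.54 on day 28. All day 28 rats thus lay above all day 1 rats, a difference that was not tested. For the other lists just named, the ranges of the summed level overlapped between day 1 and day 28. Slc34a1 differed by 0.00 (adjusted p = 0.995), and its other probe set by 0.97 ± 0.26, which did not pass with all probe sets kept apart (limma adjusted p = 0.119). Nphs1 differed by 0.14, with 0.07 for its other probe set, and Aqp2, the water channel of the collecting duct, by 0.15. Of 17 genes of the distal convoluted and connecting tubule, 1 was called higher, Trpm7 (0.43, adjusted p = 0.0449), whose other probe set gave -0.03; Slc12a3, the thiazide-sensitive sodium chloride cotransporter, had 0.67 and did not pass (adjusted p = 0.17). Of 25 organic ion transporters, 1 was called lower, Slco2b1, whose other probe set gave 0.18. The hormone-linked lists gave 0 calls: 19 genes of the insulin-like growth factor and growth hormone axis had a median of 0.15, 27 sex-dependent and androgen-responsive genes 0.03, and 23 genes of vitamin D, calcium and phosphate handling 0.02. Cyp2c11, a male-specific cytochrome P450 of rats, had 1.26 with an adjusted p of 0.332. Of 27 injury genes, 0 passed between day 1 and day 28 (0.75% of all genes), with a median of -0.05. Havcr1, which encodes kidney injury molecule 1, had 0.16, and Lcn2, lipocalin 2, had 0.04. A difference that does not pass does not show that levels were equal.

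In the fit to all 4 days, day 7 stood apart from the days on both sides of it. In the limma fit it differed in 150 genes from day 1 (81 higher, 0.76%, and 69 lower, 0.647%; together 1.41%), in 108 from day 14 (1.01%, with 62 higher on day 14, 0.581%, and 46 lower, 0.431%) and in 236 from day 28 (2.21%, with 103 higher on day 28, 0.966%, and 133 lower, 1.25%; 132 higher and 114 lower without quantile normalization). These counts use 1 estimate of the spread for all 4 days. Fitted to the arrays of the 2 days alone, they were 17 against day 1, 1 against day 14 and 62 against day 28. The 1 was not among the 108. Against the mean of the other 3 days, 132 genes were higher and 115 lower (2.32%). That count was 93 without replicate 4, 115 without replicate 3 and 398 without replicate 1 of day 7. Any difference among the 4 days was called for 254 genes (2.38%), of which 89 had their highest mean on day 7 and 85 their lowest (35% and 33.5%, against 33% and 23.9% of all genes). The Gapdh ratio nearly coincides with the day, so ratio and day cannot be told apart by a covariate. With it in the fit, 224 genes were called for day 7 against the rest, and only 55 of them were among the 247.

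**Figure D4:**
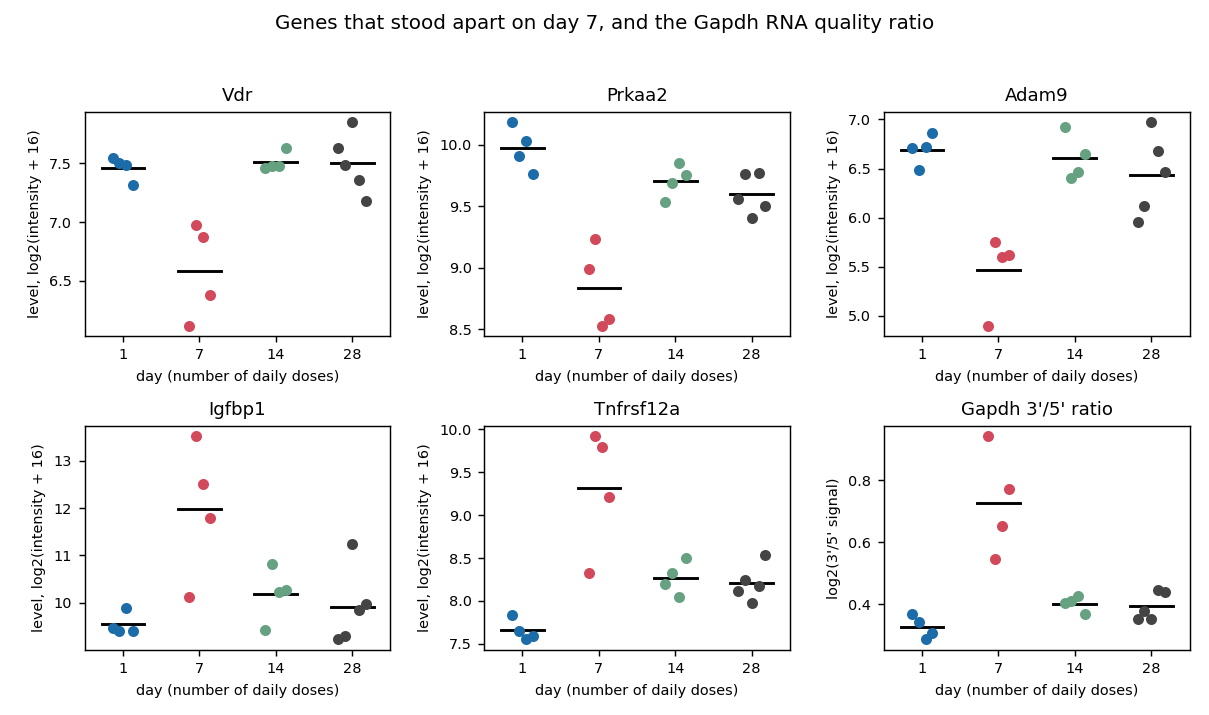
Level of Vdr, Prkaa2, Adam9, Igfbp1 and Tnfrsf12a, as log2(intensity + 16), and the log2 3′ to 5′ ratio of Gapdh, in each olive oil rat at days 1, 7, 14 and 28; points are rats and black lines are means. The 4 day 7 rats have the highest ratios, and they are below all other rats for Vdr, Prkaa2 and Adam9.

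The day 7 falls included a nuclear receptor and a metabolic kinase. Vdr, the vitamin D receptor, measured 7.55, 7.50, 7.49 and 7.32 on day 1, 6.12, 6.98, 6.87 and 6.38 on day 7, 7.46, 7.48, 7.48 and 7.63 on day 14, and 7.63, 7.49, 7.85, 7.36 and 7.18 on day 28. It was lower on day 7 by 0.91 than on the other days (limma adjusted p = 0.00351), and with the Gapdh ratio in the fit the difference was -0.06 (limma adjusted p = 0.898). Within day 7, the rat with the highest ratio (0.941) had the lowest Vdr. Prkaa2, a catalytic subunit of the AMP-activated kinase, measured 10.18, 9.91, 10.03 and 9.76 on day 1, 8.99, 9.23, 8.53 and 8.58 on day 7, 9.53, 9.69, 9.85 and 9.75 on day 14, and 9.56, 9.76, 9.40, 9.77 and 9.50 on day 28. Its difference of -0.93 (limma adjusted p = 0.000781) was -0.92 with the ratio in the fit and did not pass (limma adjusted p = 0.071). Adam9, a membrane metalloproteinase (-1.11, limma adjusted p = 0.00384), and Zbtb41 (-0.91, adjusted p = 0.00384) were -0.51 (limma adjusted p = 0.451) and -0.28 (adjusted p = 0.601) with the ratio in the fit. A1cf, an RNA-binding protein (-0.93, adjusted p = 0.00551), was -1.22 (limma adjusted p = 0.0632).

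Igfbp1, which encodes a binding protein for insulin-like growth factors and whose gene is switched off by insulin in liver, was among the rises of day 7. Its promoter is shown for a match of CAAAACAA, the core of the element through which insulin acts on this gene in liver, which is in capitals (chr14:86261027-86261276, plus strand, RefSeq, GRCr8).
Igfbp1: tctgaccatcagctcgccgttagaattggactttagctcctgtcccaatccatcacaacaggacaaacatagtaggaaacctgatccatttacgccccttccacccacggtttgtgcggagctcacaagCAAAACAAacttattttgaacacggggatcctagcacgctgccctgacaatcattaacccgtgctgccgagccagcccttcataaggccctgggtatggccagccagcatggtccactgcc
These letters occur on either strand in 1.37% of the 8904 tested genes' promoters. Igfbp1 measured 9.47, 9.40, 9.89 and 9.40 on day 1, 10.12, 13.52, 12.52 and 11.80 on day 7, 9.42, 10.81, 10.22 and 10.26 on day 14, and 9.22, 9.29, 11.25, 9.84 and 9.97 on day 28. The 4 rats of day 7 were far apart, the lowest being the one with the highest Gapdh ratio and the highest the one with the lowest ratio of that day (0.545). A link across these 4 rats was again not tested. Day 7 exceeded day 1 by 2.45 ± 0.56 (limma adjusted p = 0.0422), a call lost in 14 of 25 alternative settings. With the ratio in the fit the difference was 5.46 (limma adjusted p = 0.00831). That value is larger than the gap between any day 7 rat and any day 1 rat, so it reaches beyond the measured levels.

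Tnfrsf12a, the receptor for the cytokine TWEAK, measured 7.83, 7.65, 7.55 and 7.59 on day 1, 8.33, 9.92, 9.79 and 9.21 on day 7, 8.20, 8.33, 8.05 and 8.50 on day 14, and 8.12, 8.24, 7.98, 8.17 and 8.53 on day 28. All day 7 rats exceeded all day 1 rats, by 1.66 ± 0.25 on average (limma adjusted p = 0.00515). With the ratio in the fit the difference was 2.99, again larger than the gap between any rats of day 7 and day 1. Fkbp5, a glucocorticoid-induced immunophilin, measured 9.06, 8.18, 9.43 and 8.33 on day 1, 9.93, 11.30, 10.92 and 10.43 on day 7, 8.72, 10.21, 10.28 and 9.71 on day 14, and 8.76, 9.18, 10.64, 9.73 and 9.45 on day 28. Its rise from day 1 to day 7 of 1.90 ± 0.42 (limma adjusted p = 0.0391) was lost in 10 of 25 alternative settings, and was 3.11 with the ratio in the fit (limma adjusted p = 0.0636). Tmem252 rose by 1.41 from day 1 (limma adjusted p = 0.00459) and passed in all 25. Its value with the ratio in the fit, 2.11 (limma adjusted p = 0.0145), also exceeded every gap between rats of day 7 and day 1. Cdkn1a, the p21 inhibitor of cell cycle kinases, rose by 1.29 ± 0.29 (adjusted p = 0.0393; 2.25 with the ratio in the fit, limma adjusted p = 0.0523).

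Single genes of fuel use and of injury were also called on day 7. Pdk4, the kinase that turns off pyruvate dehydrogenase in fasting, measured 10.15, 9.86, 9.89 and 9.95 on day 1, 10.09, 10.80, 10.83 and 10.31 on day 7, 9.62, 9.71, 9.75 and 10.29 on day 14, and 9.33, 9.19, 9.41, 9.65 and 9.44 on day 28. It was 0.77 higher on day 7 than on the other days (limma adjusted p = 0.00912), but its other probe set, with a mean level of 7.49, gave -0.04. From day 7 to day 28 Pdk4 fell by 1.11 (limma adjusted p = 0.00277). With the ratio in the fit that difference was -1.65 (limma adjusted p = 0.00872). Of 37 genes of fatty acid oxidation, 3 were higher on day 7 than on the other days (1.24% of all genes), Pdk4, Angptl4 (0.93, adjusted p = 0.0486) and Cpt1a, the carnitine palmitoyltransferase of the mitochondrial outer membrane (0.31, adjusted p = 0.0345), and 1 was lower (1.08% of all genes), Acadvl (-0.23, adjusted p = 0.0389). The median of that list was -0.04, with 22 of 37 differences below 0. The 3 that were higher became 1 without replicate 1, 3 or 4 of day 1, replicate 2, 3 or 4 of day 7 or replicate 1 of day 28, and 2 with the ratio in the fit. With the ratio Pdk4 was 1.34 (limma adjusted p = 0.0228), Angptl4 2.11 (adjusted p = 0.0219), Cpt1a 0.58 (adjusted p = 0.0508) and Acadvl -0.11 (adjusted p = 0.656). Of 27 injury genes, 2 were higher, Timp1, an inhibitor of metalloproteinases (0.56, adjusted p = 0.0142), and S100a6 (0.42, adjusted p = 0.0345), and 0 were lower; the median was 0.22, with 3 differences below 0. The count was 0 without replicate 2 or 4 of day 7, 1 without replicate 3 and 4 without replicate 1 of day 7. With the ratio in the fit it was 3, with a median of 0.38; S100a6 was then 0.81 (limma adjusted p = 0.0372) and Timp1 0.80 (adjusted p = 0.0771).

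The CsA 2.5 mg/kg rats give the same calendar in other animals, all of which also received drug. Between day 1 and day 28, 142 genes were called in them (1.33%, limma), 90 higher (0.844%) and 52 lower (0.488%), whereas the olive oil rats had more falls than rises. Of the 80 genes called in olive oil rats, 76 had the same sign (95% against 66.5% of all genes) and 41 were called in the same direction. The differences of the 80 genes correlated at r = 0.92 across genes, against 0.5 over all genes. Genes are not independent replicates. Choosing genes with large differences of either sign raises r by itself, so these values of r cannot be set against each other. The median size of the 80 differences was 0.62 in olive oil rats and 0.41 in CsA rats in the same direction. The test of the difference between both groups of rats called 0 genes in limma, with 404 at an unadjusted p under 0.05, of which 11 were among the 80. These 11 are 13.8% of the 80, against 3.79% of all genes. The 80 were called in the olive oil rats, whose values also enter this test. That choice alone can give a higher share and a smaller CsA median, so neither is evidence of a weaker change in the CsA rats. Col1a2 fell by 1.00 (limma adjusted p = 0.00377), Fstl1 by 0.68 (adjusted p = 0.000806), Hbb by 0.93 (adjusted p = 0.00478), Alas2 by 1.04 (adjusted p = 0.00469) and Cdc25b by 0.72 (adjusted p = 0.0188). Scaf11 rose by 0.86 (adjusted p = 1.26e-05), Nefm by 0.91 (adjusted p = 0.00986) and Baz2b by 1.10 (adjusted p = 6.5e-05). In the CsA rats 7 of 39 matrix genes fell, with a median of -0.43, and 3 of 43 cell cycle genes fell, with a median of -0.29. Col6a6, the collagen gene outside the matrix list, rose in the CsA rats by 0.77 (limma adjusted p = 0.0183). Wiz (0.18), Chd7 (0.35) and Pcdh18 (-0.29) did not pass in the CsA rats. For Pcdh18 the unadjusted limma p of the difference between the groups was 0.00396.

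**Figure D5:**
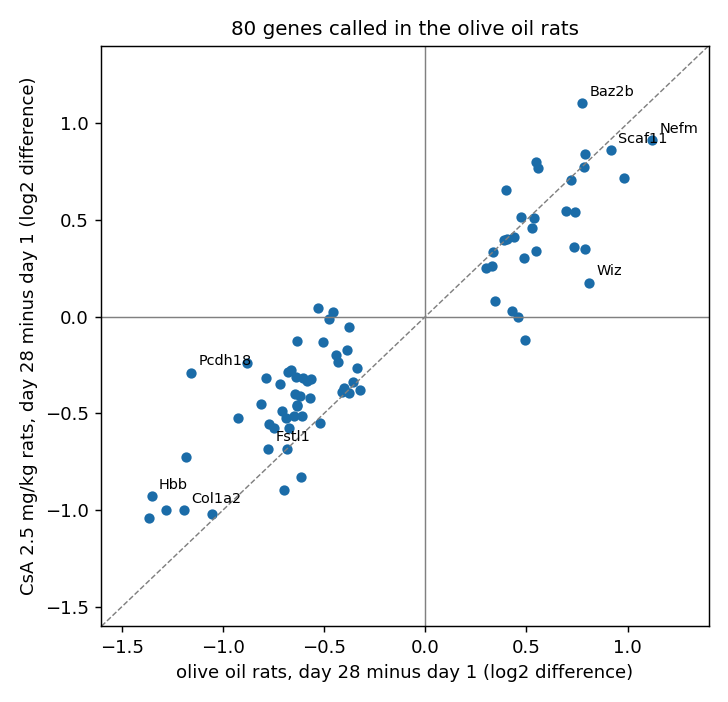
Difference between day 28 and day 1 (log2) of the 80 genes called in olive oil rats, with the olive oil value on the horizontal axis and the value in CsA 2.5 mg/kg rats on the vertical axis; each point is 1 gene and the dashed line marks equal values. Of the 80 genes, 76 have the same sign on both axes.

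The day 7 pattern was also present in part in these rats, whose mean Gapdh ratio was again highest on day 7 (0.791, range 0.381 to 1.18, against day means of 0.323, 0.325 and 0.476). Against the other days, 190 genes were called on day 7 (1.78%, limma), and of the 247 genes called in olive oil rats, 217 had the same sign (87.9% against 63.9% of all genes) and 56 were called in the same direction. The test of the difference between the groups called 0 genes in limma, with 803 at an unadjusted p under 0.05, of which 75 were among the 247. These 75 are 30.4% of the 247, against 7.53% of all genes. The median size of the 247 differences was 0.46 in olive oil rats and 0.24 in CsA rats in the same direction. Here too the genes were called in the olive oil rats, whose values enter the test. The higher share and the smaller CsA median are therefore not evidence of a weaker change in the CsA rats. The falls recurred: Vdr (-0.94, limma adjusted p = 0.00595), Prkaa2 (-0.93, adjusted p = 0.000507) and Adam9 (-0.91, adjusted p = 0.0273). Of the rises, Tbc1d1, a Rab GTPase-activating protein, passed in both groups of rats (0.76 in olive oil, limma adjusted p = 0.0139, and 0.52 in CsA, adjusted p = 0.0454). Its other probe set, with a mean level of 7.32, gave -0.04 in the olive oil rats. In the same contrast Igfbp1 was 2.11 in olive oil and 0.74 in CsA rats (limma adjusted p in CsA rats = 0.547), Tnfrsf12a 1.27 and 0.27 (adjusted p = 0.623), Fkbp5 1.30 and 0.77 (adjusted p = 0.255), and Tmem252 0.87 and 0.47 (adjusted p = 0.251). None of these 4 passed in the CsA rats, and for none did the difference between the groups pass. In the CsA rats 2 of 43 cell cycle genes were higher on day 7 (84 of all 10663 genes), with a median of 0.26 (0.03 over all genes).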

How the data were processed

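The authors deposited 1 table of linear intensity values, 1 column per array; per the labels, total RNA was labelled in a one-cycle protocol and read with the scanner's operating software, and how probes were summarized or scaled is not given in the sources used here. An offset of 16 was added, log2 was taken and the 17 olive oil arrays were quantile normalized. For each of 14217 genes named by 1 symbol the brightest probe set was kept, and the dimmest 25% (3554 genes, under an intensity of 38.9) were dropped. A mean per day was fitted with limma 3.58.1 in R 4.3.3 (13 residual and 3.22 prior degrees of freedom), two-sided, adjusted by Benjamini-Hochberg over 10663 genes and called under 0.05. The fit was tested on simulated data. Named genes were the largest called changes without overlap between rats (up to 12 each way for day 28 against day 1, 5 each way elsewhere), fixed genes and members of the lists. Of 41 lists, 11 are described in detail. Members and lists were chosen with earlier results of these data known. CsA rats were added in a joint fit. No litter or batch is named, so p-values measure the spread between these rats. Errors of differences are SE. Arrays hold no counts; the number of rats limits the precision. Alternatives were no quantile normalization, an offset of 1, no dim filter, an intensity trend, the Gapdh ratio as covariate, all 120 arrays, all probe sets, 2 days alone, no day 7 arrays, and each rat left out.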

Additional observations from a re-analysis of the deposited data

Results flagged for a closer look

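Single rats stood apart from the others of their day in 27 of 444 groups looked at (109 genes and the Gapdh and beta-actin ratios, on 4 days). The test was the gap to the nearest rat, divided by the range of the group, against Dixon's 95% critical value, which chance exceeds in about 1 in 20 groups. Values are log2 levels, followed by the range of the other rats of that day. On day 7, replicate 2, the rat with the lowest Gapdh ratio of that day, stood apart for 4 genes, Cyp27b1 in replicate 2 of day 7 (5.65 against 6.67 to 6.80), Igf1 in replicate 2 of day 7 (9.12 against 9.53 to 9.57), Hsd17b1 in replicate 2 of day 7 (8.60 against 8.02 to 8.11) and Tbc1d1 in replicate 2 of day 7 (10.41 against 9.76 to 9.84). Cyp27b1 makes active vitamin D. Replicate 1, with the highest ratio, stood apart for 3, Cd164l2 in replicate 1 of day 7 (6.89 against 6.22 to 6.28), Sowaha in replicate 1 of day 7 (6.33 against 5.45 to 5.54) and Tfrc in replicate 1 of day 7 (10.33 against 9.82 to 9.89). The other day 7 values were Clu in replicate 3 of day 7 (9.68 against 10.27 to 10.38), Prlr in replicate 3 of day 7 (10.72 against 11.02 to 11.07) and Csf2rb in replicate 4 of day 7 (7.17 against 7.56 to 7.64). On day 28, replicate 2 stood apart for 3 genes, Kl in replicate 2 of day 28 (5.96 against 6.58 to 6.72), Mfap4 in replicate 2 of day 28 (5.92 against 6.56 to 6.69) and Spp1 in replicate 2 of day 28 (10.79 against 11.75 to 12.08); Kl encodes klotho and Spp1 osteopontin. The other day 28 values were Cd164l2 in replicate 5 of day 28 (6.73 against 6.20 to 6.31), Trpv6 in replicate 5 of day 28 (5.25 against 6.45 to 6.54) and Col6a6 in replicate 1 of day 28 (7.12 against 7.55 to 7.70). The day 14 values were Arhgap26 in replicate 3 of day 14 (7.71 against 8.30 to 8.36), Cyp27b1 in replicate 3 of day 14 (5.84 against 5.99 to 6.01), Lama4 in replicate 3 of day 14 (7.30 against 6.59 to 6.64), Scaf11 in replicate 2 of day 14 (9.20 against 8.98 to 9.01) and Vdr in replicate 4 of day 14 (7.63 against 7.46 to 7.48). The day 1 values were Ap1s1 in replicate 1 of day 1 (9.41 against 9.25 to 9.26), Gdf15 in replicate 2 of day 1 (6.93 against 6.19 to 6.27), Igfbp1 in replicate 3 of day 1 (9.89 against 9.40 to 9.47), Lce3b in replicate 2 of day 1 (6.14 against 6.57 to 6.65), Slc22a13 in replicate 4 of day 1 (7.99 against 6.44 to 6.53) and Slc34a1 in replicate 3 of day 1 (13.85 against 13.76 to 13.76).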

How the results depend on the processing

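The number of called genes moved with several settings, here in the order any difference, 28 against 1, 14 against 1, 28 against 14, 7 against 1, 14 against 7, 28 against 7 and 7 against the rest. In a fit to all 120 arrays it was 830, 225, 38, 53, 405, 319, 461 and 609, and with all probe sets kept apart 779, 122, 21, 89, 589, 433, 549 and 777, where the last were 220 higher and 557 lower against 132 and 115. Without the filter on dim genes it was 142, 47, 8, 14, 78, 81, 125 and 140. Without quantile normalization, 14 against 1 gave 8 and 28 against 14 gave 8, and 28 against 7 split into 132 higher and 114 lower; with an intensity trend 14 against 1 gave 5. A fit to the 2 days alone gave 119 for 28 against 1 (58 higher and 61 lower, against 30 and 50), 1 for 14 against 1, 1 for 28 against 14, 17 for 7 against 1, 1 for 14 against 7 and 62 for 28 against 7. Without the day 7 arrays, 28 against 1 gave 153 (74 higher and 79 lower), of which 76 were among the 80. With the Gapdh ratio as a covariate 28 against 1 gave 85, of which 59 were among the 80. With 1 rat left out, the counts ran from 108 to 298, 30 to 167, 1 to 28, 3 to 26, 49 to 242, 28 to 207, 78 to 317 and 93 to 398. For 28 against 1 the lowest count came without replicate 1 of day 1 (30) and the highest without replicate 2 of day 7 (167, 82 higher and 85 lower). For 7 against the rest they came without replicates 4 and 1 of day 7. Of the values of single genes, 2748 kept their direction and side of the threshold, 479 were no longer past it, 23 newly passed and 2 reversed: Egf (-0.03 against 0.11) and Umod (-0.07 against 0.10) for day 28 against day 1 without quantile normalization. The causes of these moves were not tested. No paired analysis was possible because replicate numbers only follow the order of the entries and different rats were taken at each day. The 4 or 5 rats a day limit what can be called, and dim genes near an intensity of 38.9 carry little signal over background.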

Other observations

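Between day 1 and day 28, lists for general cell metabolism had no called gene, and most of their differences were below 0. Of 40 ribosomal and translation genes, 36 differences were below 0, with a median of -0.07. Of 67 genes of the mitochondrial respiratory chain, 52 were below 0, with a median of -0.07, and of 27 genes of sterol and fatty acid synthesis, 22 were below 0, with a median of -0.18. Of 26 glucose and lactate genes 19 were below 0, with a median of -0.04. Over all genes the median was -0.006, and the share below 0 was close to even. Other lists leaned the other way, such as 18 podocyte genes (median 0.12, 4 below 0) and 35 proximal tubule genes (median 0.07, 11 below 0). Genes of a list are not independent, these leanings were not tested, and differences as small as those of Egf and Umod moved with normalization. Of 10 imprinted and fetal growth genes, 1 fell (0.469% of all genes), Igf2bp2, an RNA-binding protein of fetal tissue (-0.71 ± 0.14, limma adjusted p = 0.0246). The other Igf2bp2 probe set gave -0.22. Igf2 itself had -0.22 (limma adjusted p = 0.827). Nephron progenitor and renal development genes gave 0 calls of 9 tested, with a median of 0.07.

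Other genes that fell between day 1 and day 28 were Aldh1a2, an enzyme that makes retinoic acid (-0.69 ± 0.13, limma adjusted p = 0.0149), Cdh11, a cadherin of mesenchymal cells (-0.62 ± 0.12, adjusted p = 0.0255), Angpt2, a ligand of the vascular Tie2 receptor (-0.70 ± 0.16, adjusted p = 0.0493), E2f2, a transcription factor of the cell cycle (-0.53 ± 0.11, adjusted p = 0.0433), and Ssrp1, a histone chaperone (-0.38 ± 0.07, adjusted p = 0.0123). They were picked after their values were seen. Acsm3, an acyl-CoA synthetase whose level depends on sex hormones in rodent kidney, had 1.00 in olive oil rats and -1.88 in CsA 2.5 mg/kg rats; neither the first value (adjusted p = 0.436) nor the difference over all genes passed in limma (unadjusted p = 0.000893). The gene with the smallest p for that difference was Zmynd19 (0.23 and -0.51, limma adjusted p = 0.0597). Alb, the liver's albumin, measured 10.7 in replicate 3 of day 28 and 4.93 to 6.83 in the other rats of that day.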
